A study of Triticum aestivum with 10 samples.

Results

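Wcor15 is a cold-responsive wheat gene whose protein is targeted to the chloroplast, and its transcript was followed across 5 groups of synthetic hexaploid wheat samples. It was measured by the probe that carries the name Wcor15 on an Agilent wheat array, which is 1 of 37826 non-control probes and sits on 1 spot of each array. The probe was found by this name, and the gene was chosen with earlier results of these data known. Which of the gene's copies in the A, B and D genomes the probe reads is not given in the sources used here.

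The study set a line with cold-induced hybrid necrosis, in which tissue of a hybrid dies after growth in the cold, against a line with a wild-type phenotype. Both are synthetic hexaploid wheats, bread wheat made anew from tetraploid wheat and the goat grass Aegilops tauschii. The series title speaks of triploid hybrids of the same cross, while the sample labels name hexaploid lines. Each of 10 one-colour arrays held Cy3-labelled RNA of 1 sample, with 2 arrays in each group. All plants spent their first 3 weeks at 23 °C. Leaves of the necrotic and of the wild-type line followed 12 more weeks at 4 °C, and leaves of the necrotic line were also taken before any cold. Shoots of both lines, which included the apical meristem, followed 6 weeks of 4 °C. No wild-type sample at 23 °C was analysed here. The lines are named only by their phenotype. The design text speaks of 2 independent experiments but not of separate plants or of their number in a sample, so the p-values measure the spread between these samples and no more.

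Cold acclimation in wheat works through transcription factors of the CBF/DREB family, which are made soon after a drop in temperature and switch on a set of Cor/Lea genes (cold-regulated and late embryogenesis abundant). Wcor15 belongs to this set, and its expression is known to be cold-specific and stimulated by light. The related Arabidopsis protein COR15A protects chloroplast membranes when cells freeze. Leaf blades hold many mature chloroplasts, whereas cells of the apical meristem hold undeveloped plastids.

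Each array had 28487 to 32630 probes well above background by the flag of the scanner software, and no spot was saturated. Replicate arrays of a group correlated at r = 0.994 to 0.997 over all probes, which are not independent of each other. The 2 arrays at 23 °C were on 1 slide, the 4 shoot arrays on another and the 4 cold leaf arrays on the last of 3 slides, each with its own scan. The lines were therefore compared within a slide, whereas temperature and tissue each lay between slides. None of 14 names of leaf and meristem marker genes matched a probe, so that the labelled tissues were not checked against markers. In whole leaves and shoots, fewer cells of a type and less RNA per cell cannot be told apart.

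The signal of Wcor15 was highest in cold leaves of both lines and lay near the background in cold shoots of the necrotic line. The processed signal is the brightness of the spot after background subtraction, in scanner units. It was 1549.9 and 1474.5 on the arrays of the necrotic leaf at 4 °C, with an error estimate of the scanner software of 155 and 147. In the wild-type leaf at 4 °C it was 1036 and 987, with errors of 104 and 98.7. Wcor15 was thus bright in the cold leaves of both lines, and the ranges of the 2 lines did not overlap. In the necrotic leaf at 23 °C the signal was 26.9 on both arrays, with errors of 2.91 and 2.95. In the necrotic shoot at 4 °C it was 1.44 and 1.26, with errors of 1.09 and 1.26, and in the wild-type shoot it was 30.1 and 28.6, with errors of 3.26 and 3.12. The probe was well above background on all 8 arrays of the other groups and on neither array of the necrotic shoot. Another flag of the software, for a positive and significant signal, was set on necrotic shoot replicate 1 but not on replicate 2. Detection is judged here by the flag for well above background.

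**Figure D1:**
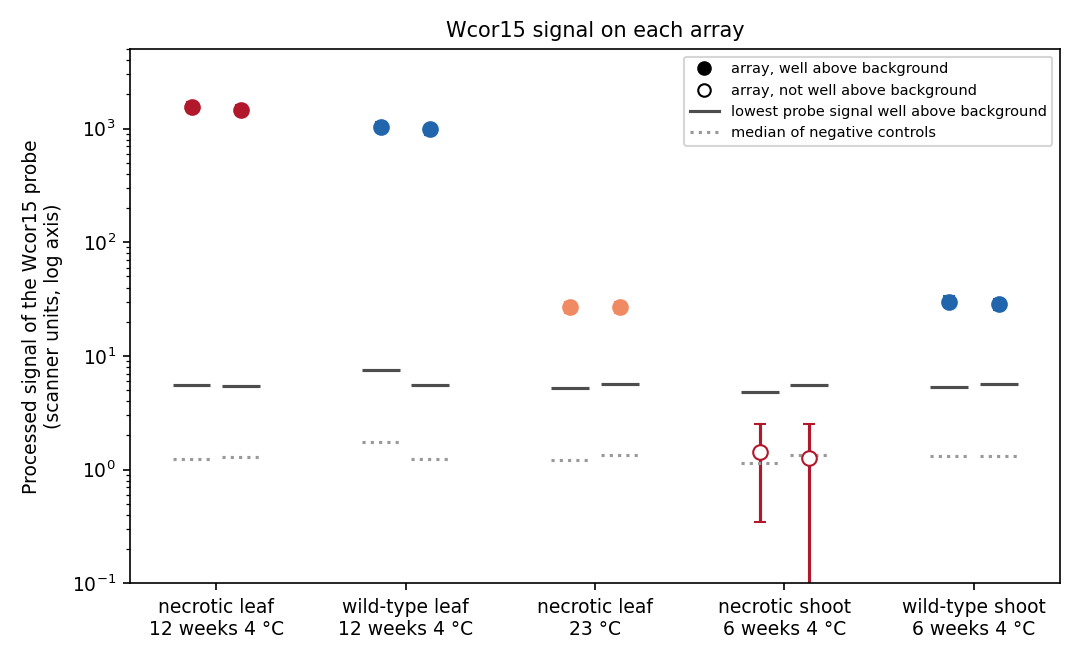
Processed signal of the Wcor15 probe on each of the 10 arrays (log axis, scanner units), with the error estimate of the scanner software as bars; the bar that runs off the lower edge has an error as large as its signal. Filled points are well above background, solid lines show the lowest probe signal well above background and dotted lines the median of 153 negative-control spots. The cold leaves lie between 987 and 1549.9, the leaf at 23 °C and the wild-type shoot between 26.9 and 30.1, and the necrotic shoot at 1.26 and 1.44, beside the negative controls.

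Negative-control spots, which carry no wheat sequence, show where the necrotic shoot stands. On its 2 arrays 20 and 97 of the 153 negative-control spots were as bright as Wcor15 or brighter. On the wild-type shoot arrays 1 and 0 of the 153 were, and that 1 spot carried an outlier flag. The median negative control was 1.14 and 1.34 units on the 2 necrotic arrays, against 1.32 and 1.31 on the wild-type ones, so the lines overlapped in this background. On the necrotic shoot arrays the dimmest probe well above background had a signal of 4.84 and 5.51, below which no probe carried that flag. This pattern of detection, on both arrays of the other 4 groups and on neither necrotic shoot array, was shared by 33 probes, Wcor15 included, or 0.0872% of all. By comparison 27074 probes (71.6%) were well above background on all 10 arrays.

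In the order of signals on each array, Wcor15 stood in the upper part in the cold leaf and in the lower part elsewhere. In the necrotic leaf at 4 °C it ranked 9647 and 9692 from the top of 37826 probes, so that 74.5% and 74.4% of probes were dimmer. In the wild-type leaf at 4 °C it ranked 12053 and 11784, with 68.1% and 68.8% dimmer. In the necrotic leaf at 23 °C it ranked 24519 and 24491, with 35.2% and 35.3% dimmer. In the wild-type shoot it ranked 28590 on both arrays (24.4% dimmer), and in the necrotic shoot, where values near background have no order, 7.02% and 2.80% of probes read dimmer. Among probes well above background on the same array, Wcor15 was brighter than 68.1% and 67.6% in the necrotic cold leaf and than 58.8% and 60.7% in the wild-type cold leaf. It was brighter than only 15.1% and 14.0% in the necrotic leaf at 23 °C and than 11.7% and 10.9% in the wild-type shoot. A rank places a probe within its array and does not compare amounts of transcript between genes.

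**Figure D2:**
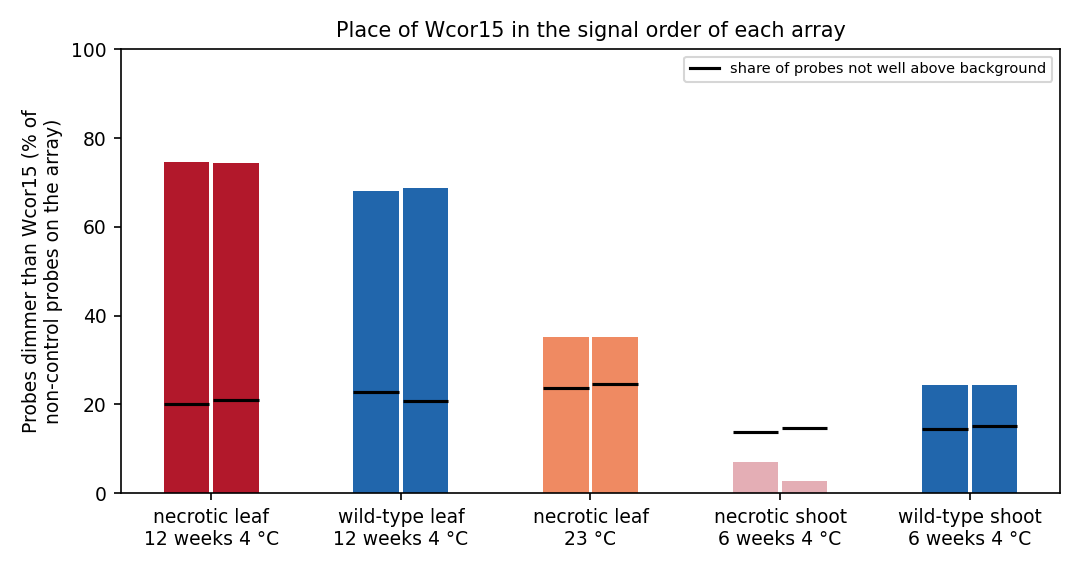
Share of the 37826 non-control probes that were dimmer than Wcor15 on each array, in percent, with 1 bar per array and pale bars where Wcor15 was not well above background; black lines mark the share of probes that were not well above background. The bars reach 74.4% to 74.5% in the necrotic cold leaf, 68.1% to 68.8% in the wild-type cold leaf, about 35% at 23 °C and 24.4% in the wild-type shoot, and lie below the black line in the necrotic shoot.

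For comparisons between arrays, a level was the log2 of the processed signal minus that of the array's 75th percentile, so that a level of 0 is as bright as the probe at that percentile. Differences were tested with limma across every probe that 1 or more groups had well above background on both of their arrays, with Benjamini-Hochberg adjustment and a threshold of 0.05. The first comparison asked whether the lines differ in leaves after 12 weeks of cold. Wcor15 stood at -0.057 and -0.062 on the necrotic leaf arrays and at -0.78 and -0.71 on the wild-type leaf arrays. Both necrotic arrays lay above both wild-type arrays. The means were -0.060 ± 0.0033 and -0.74 ± 0.049 (SD, n = 2 each), a difference of 0.68 (SE 0.062). That is 1.61-fold higher in the necrotic leaf (95% interval 1.45 to 1.78, limma adjusted p = 0.000143). Differences of this kind were common, since 53.7% of the 33094 probes tested passed the threshold in either direction and 24.3% were called higher in the necrotic leaf. A larger rise than that of Wcor15 was fitted for 3943 probes, or 11.9% of those tested. Over all settings tried the fold stayed between 1.56 and 1.65.

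In shoots after 6 weeks of cold the lines differed the other way. Neither array of the necrotic shoot had Wcor15 well above background, while the wild-type shoot stood at -5.98 and -6.05, with a mean of -6.01 ± 0.048 (SD, n = 2). The necrotic shoot read -10.37 and -10.52, with a mean of -10.45 ± 0.11 (SD, n = 2), values that only bound its level. Set against the lowest level well above background on the same arrays, the necrotic shoot had at least 5.62-fold lower Wcor15 than the wild-type shoot. The limma adjusted p of 2.52e-08 is that of the fitted difference of -4.43, which rests on background readings. The bound itself was not tested. This bound was 5.36-fold after scaling to spike-in controls and 5.94-fold after scaling to the median. In this comparison 68.4% of the 33096 probes tested were called in either direction and 36.2% were called lower in the necrotic shoot. Among the 33 probes with the same detection pattern Wcor15 had the 13th largest bound, where the median bound was 1.87 on the log2 scale and that of Wcor15 2.49. With normexp background correction, whose added offset of 50 is larger than the whole signal of Wcor15 in shoots, the fitted difference was -0.62, and on spot signals without background subtraction it was -1.14. Both passed the threshold, but they are smaller than the bound of the processed signal.

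The line differences in leaf and shoot were then tested against each other. For Wcor15 they differed by 3.17 or more on the log2 scale, leaf less shoot, by the same bound on processed signals. The adjusted p of 1.35e-07 is that of limma's fitted value of 5.11 and not of this bound. The fitted values were 1.28 with normexp and 1.82 without background subtraction, both below this bound and both past the threshold. Such differences were also common, with 64.8% of 33094 probes called in either direction and 32.1% called in the direction of Wcor15. The same quantity is the leaf-minus-shoot difference of the necrotic line less that of the wild-type line. Tissue and weeks of cold (12 in leaf, 6 in shoot) changed together with slide and scan, and they cannot be told apart.

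The effect of cold was measured in leaves of the necrotic line. Wcor15 stood at -0.057 and -0.062 after 12 weeks at 4 °C and at -4.88 and -4.91 at 23 °C. Both cold arrays lay far above both arrays at 23 °C, where the transcript was dim but well above background. The difference of 4.83 (SE 0.062) corresponds to a 28.5-fold rise (95% interval 25.7 to 31.6, limma adjusted p = 9.00e-09). Of 33045 probes 76.9% were called in either direction and 31.6% were called higher in the cold. A larger rise was fitted for 286 probes (0.865%), and among the 27830 probes well above background in both groups 177 had a larger difference in either direction. The 75th percentile itself was 1613 and 1539 in the cold leaf and 789 and 808 at 23 °C, and the median difference of all tested probes was -0.18, so that the rise relative to the median probe was 5.02. The rise was 18.5-fold on spot signals without background subtraction and 11.1-fold with normexp. Normexp also lowered the share of called probes that were higher in the cold to 27.2%, against 41.1%. With other scalings the rise was 30.9-fold (median), 25.9-fold (spike-in controls) and 25.1-fold (quantile normalization). It was 41.5-fold with the scanner's own fit of spike-in signal on concentration, a setting chosen after seeing the data. The cold leaves were 12 weeks older and lay on another slide with another scan, none of which can be told apart from cold.

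Leaf was compared with shoot within each line at 4 °C. In the wild-type line Wcor15 stood at -0.78 and -0.71 in leaf and at -5.98 and -6.05 in shoot, and the tissues did not overlap. It was 38.6-fold higher in leaf (log2 difference 5.27, SE 0.062, 95% interval 34.8 to 42.8, limma adjusted p = 9.24e-10). In the necrotic line it stood at -0.057 and -0.062 in leaf and was not well above background in shoot. That makes it at least 349-fold higher in leaf on processed signals. The limma adjusted p of 3.06e-10 is that of the fitted log2 difference of 10.39 and not of this bound. The fitted folds were lower than this bound with normexp, at 36.1-fold, and without background subtraction, at 86.9-fold. Most probes differed between the tissues. In the wild-type line 88.1% of 33096 probes were called in either direction and 39.4% were called higher in leaf. In the necrotic line 83.4% of 33094 probes were called and 34.5% were called higher in leaf. A larger excess in leaf was fitted for 607 probes in the wild-type line (1.83%). Among the 28456 probes well above background in both wild-type groups, 1267 had a larger difference in either direction.

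The size of the tissue difference depended on the scaling, and the spike-in controls were brighter on the leaf slide. Their mean log2 signal was 11.97 and 11.91 in the necrotic leaf and 12.06 and 11.94 in the wild-type leaf, against 10.58 and 10.61 in the necrotic shoot and 10.57 and 10.79 in the wild-type shoot. The labels do not say how much of these controls was added to a sample. Scaled to them, Wcor15 was 13.8-fold higher in leaf than in shoot in the wild-type line and at least 115-fold higher in the necrotic line. The same scaling put the median difference of all probes at -1.71 in the wild-type line and -1.83 in the necrotic line, against -0.22 and -0.24 with the 75th percentile. Of the called probes 15.2% and 9.05% were then higher in leaf, against 44.7% and 41.4%. In the necrotic line that share was 57.2% with median scaling and 54.3% with quantile normalization. In the wild-type line the excess of Wcor15 in leaf was 60.4-fold with quantile normalization, 24.6-fold without background subtraction, 14.8-fold with normexp and 12.97-fold with the scanner's own fit of spike-in signal on concentration. Wcor15 was higher in leaf in both lines under each of these settings.

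**Figure D3:**
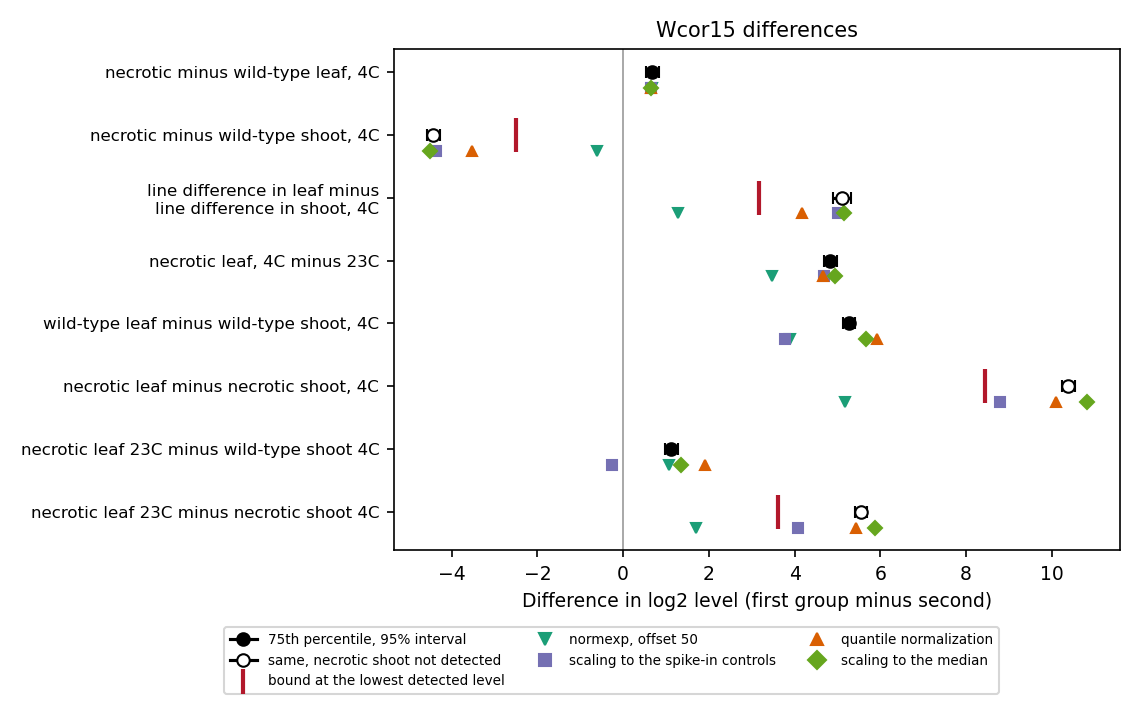
Differences in the log2 level of Wcor15, first group minus second, with the 95% interval of the limma fit. Open points involve the necrotic shoot, where Wcor15 was not detected, and the red bars show the corresponding bounds; coloured symbols are 4 other settings. The line difference in leaf is 0.68 and moves little between settings, and the sign changes only for the leaf at 23 °C minus the wild-type shoot, which is -0.27 with spike-in scaling.

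From high to low, the levels were ordered as necrotic leaf at 4 °C, wild-type leaf at 4 °C, necrotic leaf at 23 °C, wild-type shoot and necrotic shoot. The 2 cold leaf groups and the 2 shoot groups differed beyond their spread, as given above. The wild-type cold leaf at -0.74 and the necrotic leaf at 23 °C at -4.89 are also neighbours and did not overlap, but they differ in both line and temperature and were not tested. The necrotic leaf at 23 °C and the wild-type shoot stood at -4.89 ± 0.022 and -6.01 ± 0.048 (SD, n = 2 each). That difference of 1.12 (SE 0.062) was 2.18-fold with an adjusted p of 1.95e-06 in limma, in a comparison where 86.8% of 33047 probes were called and 40.5% were called higher in that leaf. It was also positive with median scaling, at 1.36, and with quantile normalization, at 1.91. The 75th percentile was 789 and 808 on the arrays of the leaf at 23 °C but 1901 and 1892 on those of the wild-type shoot. The unscaled signals were 26.9 on both arrays of that leaf and 30.1 and 28.6 in the wild-type shoot, and after scaling to spike-in controls the difference was -0.27 (limma adjusted p = 0.0605) and 16.5% of called probes were higher in that leaf, against 46.7%. With the scanner's own fit of the spike-in signals it was -0.97 and passed the threshold in the other direction (limma adjusted p = 4.78e-05). The order of these 2 groups therefore differed between the spike-in settings and the others. In that comparison of the necrotic leaf at 23 °C with the necrotic shoot, 83.5% of probes were called and 38.2% were called higher in leaf. The fitted log2 difference of 5.55 had an adjusted p of 1.12e-09 in limma, and the bound was not tested. By the bound, the necrotic shoot lay at least 12.2-fold below the necrotic leaf at 23 °C. That bound was 4.44-fold after spike-in scaling, with 11.2% of called probes higher in leaf, against 45.8%, and 56.7% with median scaling. The fitted fold was 3.24 with normexp and 4.70 without background subtraction.

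Of 34 gene names of the cold and dehydration response that were looked for, 6 matched a probe, and besides Wcor15 only RD29B was detected. In Arabidopsis cor47 encodes a dehydrin, RD29A responds to cold, drought and salt, and DREB2A and DREB2B are transcription factors of the dehydration response. The probes named after these 4 genes were well above background on 0 of 10 arrays, with levels from -10.82 to -8.74, and no file names the species of their sequences. RD29B, induced in Arabidopsis by drought and abscisic acid, was well above background on all 10 arrays but dim, between -6.89 and -5.33. It stood at -6.78 ± 0.16 in the necrotic cold leaf and -6.46 ± 0.017 in the wild-type cold leaf, at -6.32 ± 0.16 in the necrotic leaf at 23 °C, while necrotic shoots had -5.34 ± 0.015 and wild-type shoots -5.41 ± 0.015 (SD, n = 2 each).

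The tissue difference of RD29B had the opposite sign to that of Wcor15. It was lower in leaf than in shoot by a log2 difference of -1.44 (SE 0.093, adjusted p = 6.11e-06) in the necrotic line and of -1.05 (adjusted p = 2.75e-05) in the wild-type line. After quantile normalization these were -0.32 and 0.036, so that its direction in the wild-type line depended on the scaling. Against 23 °C the scaled level of RD29B fell in the cold necrotic leaf by a log2 difference of -0.45 (limma adjusted p = 0.00355), where Wcor15 rose. The median difference of all tested probes there was -0.18, and 76.9% of probes were called in either direction. Over 15 other settings the difference of RD29B ran from -0.87 to -0.25. Its unscaled signal was 13.6 and 15.1 in the cold and 10.6 and 9.34 at 23 °C. Age, slide and scan changed together with temperature here too.

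Probes with levels like those of Wcor15 were looked for among 1874 probes that were well above background in the 4 groups where Wcor15 was and whose group means spanned at least 0.5 of its span of 10.39. Likeness was the Pearson correlation over the 10 arrays, or the root mean square difference after centring each probe on its own mean. These values are descriptions, since the arrays share groups and slides. Only 19 candidates reached r of at least 0.95 and 1 reached 0.99, while the median r was -0.22. That 1 probe was MUGEST2003_23lib_Contig14405_975, with r = 0.991 and a root mean square difference of 0.62 on the log2 scale, and no other named probe came under 1. It stood at -0.99 ± 0.036 in the necrotic cold leaf and -0.84 ± 0.073 in the wild-type cold leaf, at -5.72 ± 0.14 in the necrotic leaf at 23 °C and at -5.60 ± 0.16 in the wild-type shoot (SD, n = 2 each). On both necrotic shoot arrays it was, like Wcor15, not well above background. Unlike Wcor15 it did not pass the test for a line difference in leaf, at -0.14 (SE 0.12, limma adjusted p = 0.364), although it passed in 2 of 15 other settings.

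The other probes named by correlation were wheat0130Contig1468 (r = 0.971), whsh_allContig941 (0.97), wheat0130Contig7011 (0.969) and wheat0130Contig8011 (0.966). Those named by root mean square difference were, after the first, wheat0130Contig12796 (1.04), wheat0130Contig7011 (1.11), whsh_allContig941 (1.19) and whrd2b02_333 (1.26). In whsh_allContig941, wheat0130Contig7011 and wheat0130Contig12796 the line differences had the signs seen for Wcor15, higher in the necrotic leaf by 1.97, 1.93 and 2.59 on the log2 scale and lower in the necrotic shoot, at -4.42, -4.24 and -3.46. All these differences passed the threshold in limma, where 53.7% of probes tested were called in either direction in leaf and 68.4% in shoot. The probes were chosen for levels like those of Wcor15 over these same arrays, so shared signs do not add to its result. These 3 probes were well above background on all 10 arrays, so that their values are not bounds. In the necrotic shoot they were dim, at -7.10, -7.41 and -7.05, where the lowest level well above background was -8.61 and -8.40. Their shoot differences shrank to -2.43, -1.81 and -1.49 with normexp and to -3.24, -2.62 and -2.25 without background subtraction. The others did not share the sign in leaf or did not pass there. In leaf wheat0130Contig1468 was lower in the necrotic line, at -0.56 (limma adjusted p = 0.000126). The leaf differences of whrd2b02_333, at -0.62 (adjusted p = 0.220), and wheat0130Contig8011, at 0.10 (adjusted p = 0.384), did not pass in limma. That of whrd2b02_333 did pass with normexp, at -0.58, and without background subtraction, at -0.60, both lower in the necrotic leaf. The order of likeness depended on the necrotic shoot. Over the 8 arrays where Wcor15 was detected, r of the first probe was 0.978 and it ranked 30th of the 1874, and none of the 5 named by correlation stayed among the 5 highest. No table used here describes these probes.

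**Figure D4:**
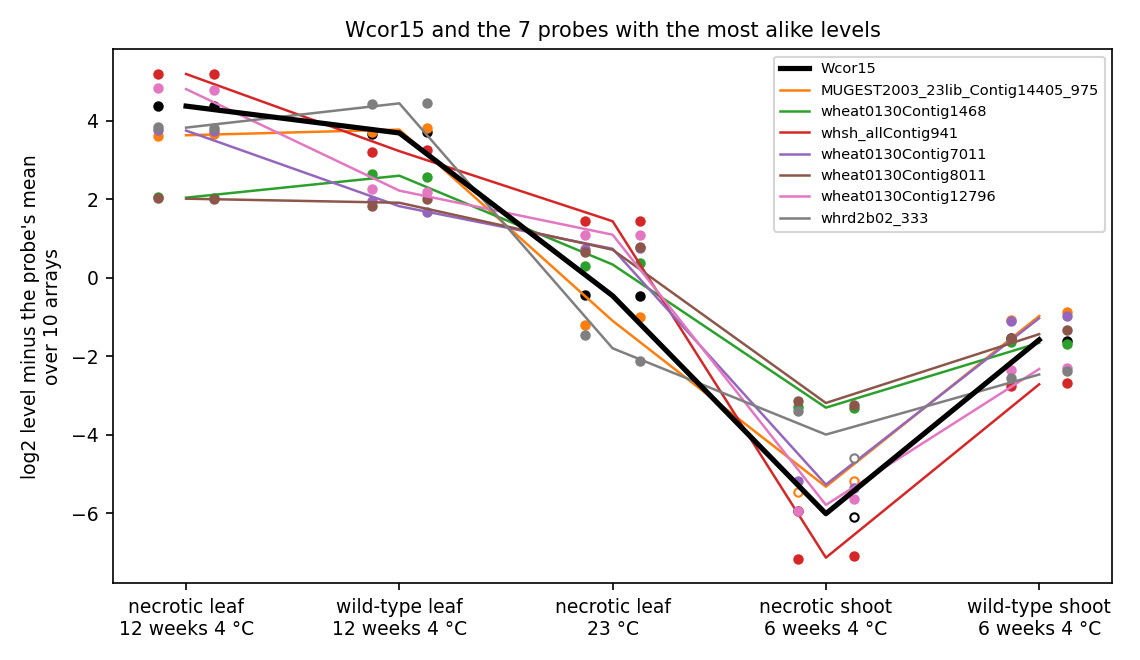
Log2 level of Wcor15 (black) and of the 7 probes named for their likeness, each minus its own mean over the 10 arrays, in the 5 groups; lines join group means only to guide the eye, and open points are not well above background. All 8 probes are highest in the cold leaves and lowest in the necrotic shoot. The 7 were chosen for levels like those of Wcor15 on these same arrays, so this likeness follows largely from the choice.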

How the data were processed

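RNA of 10 samples was hybridised to one-colour Agilent arrays. The deposited scanner tables give linear spot intensity from Agilent Feature Extraction, with 10.5.1.1 given as its version per the deposited headers. The submitters' processing notes name version 9.5. The processed intensity is background-subtracted and not scaled between arrays, and the deposited values of all 39243 features equal it. Flags for detection and outliers are the authors' deposited values. The files used hold no mean spot signal, so the median spot signal replaced it in the planned normexp alternative.

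Control spots were left out. The 75th percentile was taken over the 37826 other probes of an array, and 12 to 143 spots per array marked as outliers were treated as missing in the tests. One mean per group was fitted over all 10 arrays with limma 3.58.1 (R 4.3.3), which had 5 residual degrees of freedom and 1.56 from the prior; p-values are two-sided. The number of arrays, 2 per group, limits the precision. The fit was tested on data simulated with independent normal noise, with changes set only in the necrotic cold leaf. That simulation held no error shared by a slide and did not test the bounds.

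Where neither array of a group had a probe well above background, its fold is a bound: the brighter group's mean was set against a floor, which on each array was the lowest level well above background or the probe's level if that was higher, averaged over arrays. Wcor15 and the lists were chosen with earlier results of these data known; the rule for named probes was to give Wcor15, the probes with a cold-response gene name, and the 5 most alike by each of 2 measures, passing over accession names; probes with an outlier mark were also left out of the likeness, which the rule did not state. Samples were grouped by their labels. The alternatives were normexp, unsubtracted median signal, quantile, median and spike-in scaling, other filters, an intensity trend, fewer groups, a replicate block, slide as a block and leaving out each array.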

Additional observations from a re-analysis of the deposited data

Results flagged for a closer look

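For Wcor15 the line difference in the cold leaves differed from that in the cold shoots, by limma's test of leaf against shoot. Tissue changed together with weeks of cold, slide and scan, so this test cannot tell them apart. The fitted value was 5.11 on the log2 scale (adjusted p = 1.35e-07), and at least 3.17 by the bound for the undetected necrotic shoot. The same test was passed by 6 of the 7 probes named for their likeness to Wcor15: MUGEST2003_23lib_Contig14405_975 at 4.20, wheat0130Contig1468 at 1.09, whsh_allContig941 at 6.38, wheat0130Contig7011 at 6.17, wheat0130Contig8011 at 1.86 and wheat0130Contig12796 at 6.05 (adjusted p from 3.48e-08 to 2.92e-05). The first of them was, like Wcor15, not detected in the necrotic shoot, so its value is a fitted one. These probes were chosen for levels like those of Wcor15, so their values do not add to its result. RD29B had a value of -0.38 (adjusted p = 0.0385), which ran from -0.49 to -0.047 over 15 other settings and lost its call in 9 of them. Of all probes tested 64.8% passed this test.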

How the results depend on the processing

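The difference of Wcor15 kept its direction in all 22 other settings for the leaf, the shoot and the leaf-minus-shoot line difference. It did so in all 21 for the temperature comparison, both tissue comparisons and the necrotic leaf at 23 °C minus the necrotic shoot. In these comparisons it also kept its side of the threshold wherever each group had 2 arrays. The exception was the necrotic leaf at 23 °C minus the wild-type shoot, at 1.12 as reported but -0.27 with spike-in scaling (adjusted p = 0.0605) and -0.97 with the scanner's spike-in fit (adjusted p = 4.78e-05), a setting chosen after seeing the data; the cause was not tested. Leaving out each array in turn gave 0.65 to 0.72 for the leaf line difference, 4.82 to 4.85 for temperature, 5.24 to 5.31 for wild-type leaf minus shoot and 1.09 to 1.16 for the necrotic leaf at 23 °C minus the wild-type shoot. The values against the undetected necrotic shoot rest on background readings, so their ranges say nothing of its level and are not given. A group left with 1 array was assumed to vary like the others. Many of the 22 and 21 settings could not move the fitted difference of Wcor15. Other filters, an intensity trend, fewer groups, a replicate block, slide as a block and the loss of an array outside the comparison left it unchanged. The calls against the necrotic shoot also rest on background readings. With normexp the fitted values against the necrotic shoot shrank most, to -0.62 for the shoot line difference, 1.28 for leaf less shoot, 5.18 for the necrotic tissue comparison and 1.70 for the leaf at 23 °C.

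With a replicate block, the leaf line difference of 0.68 had an adjusted p of 0.000413, and no call changed. Equal replicate numbers did not deviate together, at r = -0.011 to 0.063 between groups. The limit to probes well above background on all 10 arrays gave no value, because Wcor15 was not among them. Slide as a random block was already contained in the groups, so that its correlation was set to 0 and it checks nothing. The total of called probes stayed within 1.5 times in each comparison, but not its parts: with spike-in scaling 4656 probes were called higher in wild-type leaf than shoot, against 13028, and 2839 in necrotic leaf than shoot, against 11411. For the leaf at 23 °C over the wild-type and the necrotic shoot these were 4967 and 3395, against 13380 and 12639. With normexp 62.4% and 63.9% of called probes were higher in the leaf at 23 °C than in the wild-type and the necrotic shoot, against 46.7% and 45.8%. By unsubtracted median signal, 76.4%, 70.4% and 25.2% of probes were dimmer than Wcor15 in the necrotic cold leaf, the wild-type cold leaf and the wild-type shoot. The 5 probes most alike by correlation shared 5 with those found over group means, and 0 with those by Spearman correlation, with normexp or over 8 arrays, and the 5 named by root mean square difference shared 1 with normexp. The likeness over 8 arrays and the bounds under other scalings were also chosen after seeing the data. Signals under the lowest well above background, 4.84 to 7.49, could not be measured.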
